A study of Mus musculus with 8 samples.

Results

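The genes described here are the 19 of 754 gene probes of a mouse NanoString nCounter panel that encode matrix metalloproteinases (symbols starting with Mmp), ADAM or ADAMTS metalloproteinases (starting with Adam), tissue inhibitors of metalloproteinases (starting with Timp) or the urokinase receptor (Plaur), chosen by symbol. They are 7 Mmp genes (Mmp1a, Mmp8, Mmp9, Mmp10, Mmp12, Mmp13 and Mmp19), 2 ADAM genes (Adam8 and Adam19), 8 ADAMTS genes (Adamts1, Adamts2, Adamts3, Adamts4, Adamts9, Adamts12, Adamts14 and Adamts17), 1 inhibitor (Timp3) and Plaur. RNA came from cells captured with beads for CD11b and CD11c out of the lungs of Balb/c mice that carried 4T1, a mammary carcinoma line of the mouse known to metastasise to lung. The DSHN group received DSHN, which activates the nuclear receptor NR0B2, and the DMSO group received DMSO as placebo, both labelled with a dose of 10 mg/kg given daily for 7 days from 10 days after grafting. The 24 mice, whose age is not given in the labels, formed 4 DSHN and 4 DMSO samples, each a pool of lungs of 3 mice of 1 treatment, and no sample from mice without a graft was used here. DSHN was compared with DMSO, to ask how an NR0B2 agonist affects myeloid cells in tumour-bearing lungs.

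Matrix metalloproteinases are zinc enzymes made as inactive precursors that, once activated, cut collagens, elastin, basement membrane proteins and many cytokines and chemokines. ADAM proteins are membrane-bound relatives, several of which release receptors and ligands from the cell surface, and ADAMTS proteins are secreted relatives that process procollagens or cut proteoglycans. TIMP proteins inhibit these enzymes. The urokinase receptor holds urokinase at the cell surface, where urokinase converts plasminogen to plasmin, a protease that can in turn activate metalloproteinase precursors. In the lung, neutrophils carry Mmp8 and Mmp9 protein in their granules and macrophages are the main source of Mmp12.

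Of the 7 Mmp genes, 5 lie in a cluster on chromosome 9, within 295.973 kb (start 7272514, end 7568486, GRCm38.p6), in the order Mmp13, Mmp12, Mmp1a, Mmp10 and Mmp8. The sequences around their start sites are shown because these neighbours, though clustered, differed in whether they were measurable in these cells, and that of Plaur is shown beside them. Each run covers positions -100 to 20 around a start site in RefSeq (GRCm38.p6), 5′ to 3′ on the plus strand, where all of them are encoded: Mmp13 at chr9:7272414-7272533, Mmp12 first start at chr9:7344297-7344416, Mmp12 second start at chr9:7347274-7347393, Mmp1a at chr9:7464041-7464160, Mmp10 at chr9:7502242-7502361, Mmp8 at chr9:7558329-7558448, Plaur at chr7:24462383-24462502. Capitals mark the motif TGANTCA, the binding sequence of AP-1 transcription factors, searched on both strands.
Mmp13: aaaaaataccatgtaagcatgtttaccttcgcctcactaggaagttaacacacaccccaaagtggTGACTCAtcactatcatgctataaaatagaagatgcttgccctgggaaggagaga
Mmp12, first start: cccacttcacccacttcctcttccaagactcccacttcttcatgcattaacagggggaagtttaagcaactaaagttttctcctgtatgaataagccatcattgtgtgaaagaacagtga
Mmp12, second start: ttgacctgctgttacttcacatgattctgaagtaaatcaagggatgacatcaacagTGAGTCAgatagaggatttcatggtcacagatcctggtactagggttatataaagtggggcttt
Mmp1a: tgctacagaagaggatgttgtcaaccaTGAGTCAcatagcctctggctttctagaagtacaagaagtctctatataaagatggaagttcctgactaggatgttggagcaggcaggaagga
Mmp10: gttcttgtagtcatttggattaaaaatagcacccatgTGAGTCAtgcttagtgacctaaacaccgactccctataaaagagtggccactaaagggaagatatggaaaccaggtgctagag
Mmp8: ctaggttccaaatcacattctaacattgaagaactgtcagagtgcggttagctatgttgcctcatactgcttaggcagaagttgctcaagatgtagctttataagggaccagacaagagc
Plaur: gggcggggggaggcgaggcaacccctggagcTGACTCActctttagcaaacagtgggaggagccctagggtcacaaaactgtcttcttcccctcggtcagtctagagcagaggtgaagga
Of the 19 genes, 16 had an entry in the promoter table, with 19 windows of 250 bases before to 50 bases after a start. The motif TGANTCA was in 6 of these 19 windows, those of Plaur, Mmp13, Mmp1a and Mmp10, the second start of Mmp12 and 1 of the starts of Adam19, against 7.81% of all 32817 such windows. It began at -69 from the start in Plaur, -35 in Mmp13, -73 in Mmp1a, -63 in Mmp10 and -44 at the second start of Mmp12, and the Mmp8 window held no match. The motif TTGCNNAA, bound by C/EBP factors, was in 1 window each of Mmp8, Mmp12, Mmp10, Adam8 and Plaur, against 10.8% of all windows. The ETS motif AGGAAG had a match for 8 of the 16 genes and the TATA motif TATAAA for 5. These counts are per gene, and Mmp12 and Adam19 had more than 1 window each. Counted per window, 35.4% of all windows held the ETS motif and 8.32% the TATA motif. A match describes the letters of a window and is no evidence of binding.

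The samples differed in depth. The recovered counts of all gene probes added up to 123785 for DSHN 1 and to between 532540 and 923523 for each other sample. A gene's count was called above background when it was larger than the limit set by the 8 negative control probes of that sample, their mean plus 2 SD. This limit was 40.1 counts in DSHN 1 and 17.9 to 26.9 counts elsewhere. The values of DMSO 1 had been multiplied by a spike-in factor of 6.82, and those of the other samples by 0.604 to 1.17. The isolated cells are called dendritic cells in the labels. Of the 9 dendritic cell markers on the panel, Itgax, which encodes the bead target CD11c, and Ccl22 were above background in all 8 samples. Batf3, Ccr7 and Irf8 were above it in 7, Lamp3 in 5, Flt3 in 2, Clec9a in 1 and Xcr1 in 0. By comparison, 8 of the 12 neutrophil markers were above it in all 8 samples, S100a8, S100a9, Csf3r and Ly6g among them. So were 10 of the 15 monocyte and macrophage markers, Csf1r, Adgre1 and Cd68 among them. The neutrophil markers Mpo and Elane were above it in 0.

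Of the 19 genes, 6 were above background in all 8 samples (31.6%, against 37.3% of all 754 genes): Plaur, Adam8, Adam19, Mmp8, Mmp9 and Mmp19. Mmp12 was above it in 7, with 40 counts in DSHN 1 against the limit of 40.1. Timp3 was above it in 7 samples, and Mmp13, Adamts1 and Adamts2 in 6. The collagenase gene Mmp1a and the stromelysin gene Mmp10, their neighbours, were above it in 0 samples, with 6 to 14 and 1 to 15 counts, so that of the 5 genes of the chromosome 9 cluster only Mmp8 was measured in every sample. Adamts3, a procollagen-processing enzyme, Adamts4 and Adamts9, which cut proteoglycans, and Adamts12 and Adamts17 were also at background throughout, with at most 21 counts. Adamts14, which also processes procollagen, was above background in DSHN 2 with 43 counts and in DMSO 2 with 25. No difference is given for these 8 genes, which lay below the abundance required for testing.

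**Figure D1:**
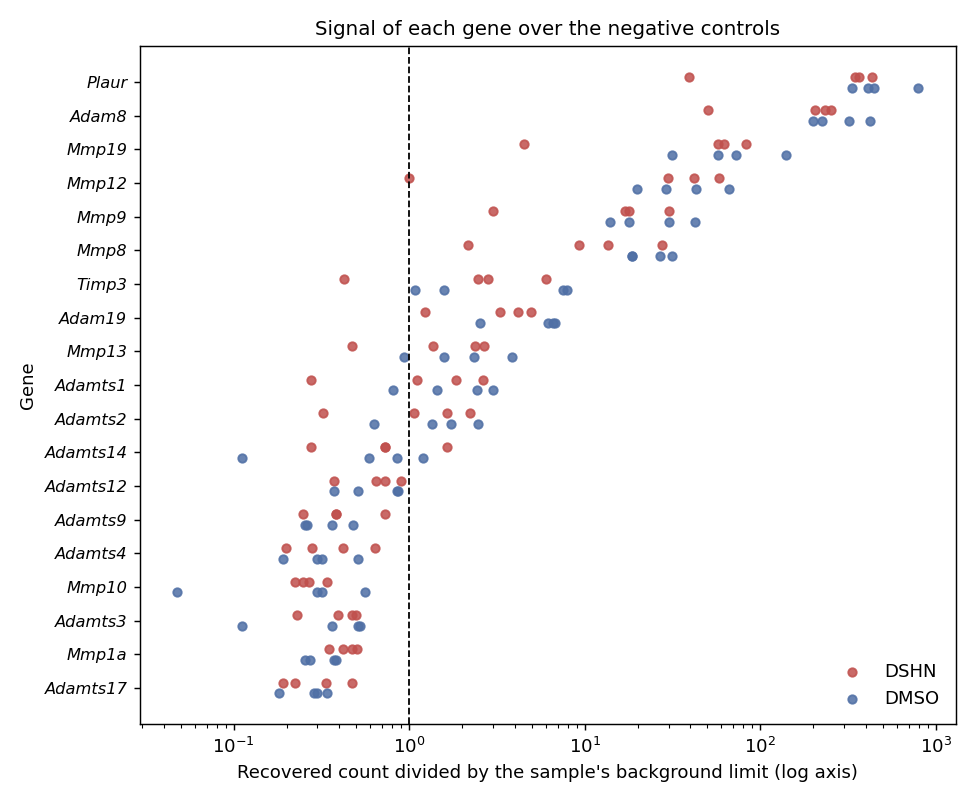
Recovered count divided by the background limit of the same sample (log axis) for the 19 genes, with 1 point per sample, DSHN above DMSO in each row; the dashed line marks the limit. Only 6 genes lie right of the line in all 8 samples, and the leftmost DSHN point of Mmp12, at 0.998, is DSHN 1.

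Differences between treatments are given as DSHN minus DMSO on log2 values scaled to the mean of Rpl19, Ppia, Oaz1 and Tubb5, the housekeeping genes, in each sample, called the housekeeping scale. Of the 11 genes tested, 0 passed limma with Benjamini-Hochberg adjustment at 0.05 over all 554 genes tested (0% of the panel, lowest adjusted p among the 11 = 0.925), and 0 had an unadjusted p under 0.05, against 3.61% of the panel (20 genes). Their group means were higher in DSHN for 8 and lower for 3, where 53.4% of the panel was higher, and the median difference was 0.13 against 0.03 over the panel. The DSHN and DMSO values overlapped in all 11, while they did not overlap in 3.25% of the panel. With the values as deposited, which move with the amount of RNA and the spike-in factor, all 11 were lower in DSHN. Their median was -1.775, beside -1.87 over the panel. The deposited housekeeping mean was lowest in DSHN 1, at 7.86, and highest in DMSO 1, at 13.37, the sample with the factor of 6.82. In the other samples it was at most 10.84 in DSHN and 10.98 to 11.80 in DMSO. DSHN 1 and DMSO 1 thus widen this shift, and its size without them was not tested. In pools, fewer cells of a type and less RNA per cell cannot be told apart.

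**Figure D2:**
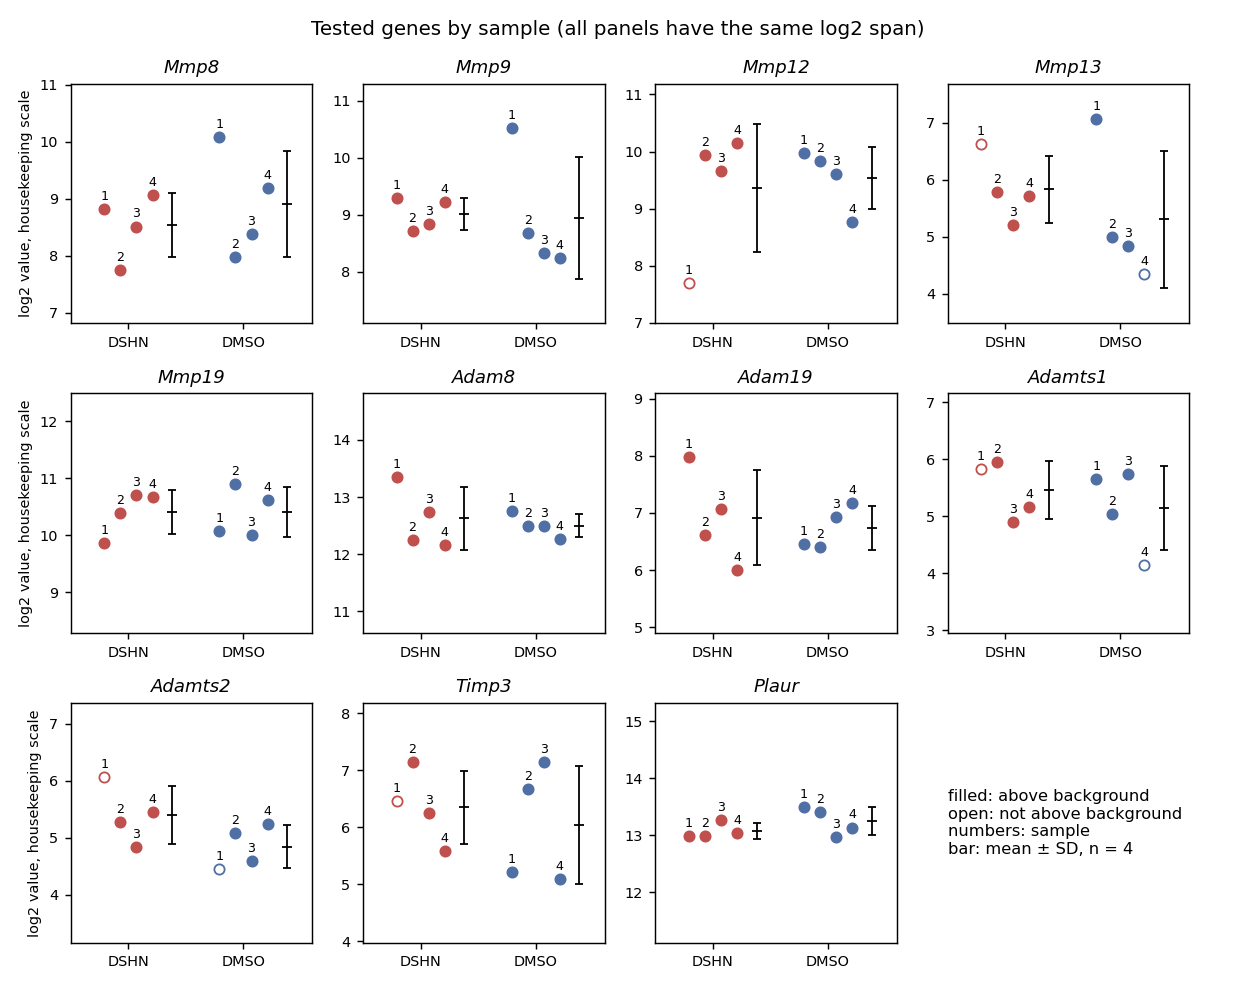
log2 value on the housekeeping scale of the 11 tested genes in each sample, DSHN left of DMSO, with numbers naming the sample, open points not above background, and bars giving mean ± SD (n = 4). The 2 groups overlap in every panel, and DMSO 1 stands highest in Mmp8, Mmp9, Mmp13 and Plaur.

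Mmp8 and Mmp9 encode the collagenase and a gelatinase stored in neutrophil granules, and Mmp13 encodes another collagenase. The highest value above background was in DMSO 1 for each. Mmp9 had 9.29, 8.71, 8.83 and 9.22 in DSHN 1 to 4, against 10.52, 8.69, 8.33 and 8.25 in DMSO 1 to 4. The 4 DSHN samples thus lay between DMSO 1 and the other 3 DMSO samples, and the SD was 0.28 in DSHN and 1.07 in DMSO. The difference over all samples was 0.07 (95% interval -0.97 to 1.11, limma adjusted p = 0.991). Mmp13 had 5.79, 5.203 and 5.71 in DSHN 2, 3 and 4, against 7.06, 4.996 and 4.83 in DMSO 1, 2 and 3. In DSHN 1, at 19 counts, and in DMSO 4, at 22 counts, it was not above background. Its difference was 0.52 (-0.78 to 1.82, limma adjusted p = 0.925), 0.02 with background subtracted and 0.20 without DMSO 4.

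DMSO 1 held the highest DMSO value of Mmp9 and of Mmp13, so leaving it out could only raise their differences. Without DMSO 1, Mmp9 and Mmp13 were the 2 of these 11 genes with an unadjusted p under 0.05, both higher in DSHN, against 3.97% of the panel counted in that direction. Mmp9 then differed by 0.59 (95% interval 0.13 to 1.05) and Mmp13 by 1.10 (0.18 to 2.03), with an adjusted p of 0.899 in limma for each. All DSHN values of both genes lay above those of the other DMSO samples, as they did in 6.32% of the panel, though the Mmp13 value of DSHN 1, 6.62, is at background. For Mmp9 the margin was small, with 8.71 as the lowest DSHN value and 8.69 as the highest of the 3 DMSO values. Without both DMSO 1 and DSHN 1, the samples with the highest spike-in factor and the fewest counts, the differences were 0.50 for Mmp9 and 0.84 for Mmp13 (adjusted p = 0.926 and 0.920 in limma). Both had an unadjusted p under 0.05 with a higher mean in DSHN, as 4.69% of the panel had. When any single sample other than DMSO 1 was left out, the difference was -0.17 to 0.17 for Mmp9 and 0.20 to 0.73 for Mmp13. Neither gene passed the threshold in any of these comparisons.

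Mmp8 had 8.82, 7.76, 8.51 and 9.07 in DSHN 1 to 4, against 10.08, 7.99, 8.39 and 9.19 in DMSO 1 to 4. The groups interleaved below DMSO 1, and the difference was -0.37 (95% interval -1.40 to 0.65, limma adjusted p = 0.925) over all samples and 0.02 without DMSO 1. Summed marker levels of neutrophils and of monocytes and macrophages also peaked in DMSO 1. Single markers differed. Csf3r and Csf1r had their highest value there, at 11.91 and 10.71, whereas Cxcr1, Siglecf and Mertk had their lowest, at 5.61, 6.17 and 6.76. As the log2 of their sum on the housekeeping scale, the 12 neutrophil markers on the panel, 8 of them above background in all samples, spanned 16.13 to 17.27 in DSHN and 16.39 to 17.80 in DMSO, the highest in DMSO 1. Mpo and Elane, which mark neutrophil precursors, were above background in 0 samples. The 15 monocyte and macrophage markers spanned 13.49 to 14.002 in DSHN and 13.45 to 14.82 in DMSO, again the highest in DMSO 1, and the 9 dendritic cell markers spanned 10.59 to 10.80 in DSHN and 9.74 to 10.58 in DMSO, with DMSO 1 the lowest. Bright genes weigh most in such sums. In DMSO 1 the neutrophil markers S100a8 and S100a9 were at 17.15 and 16.11, and the macrophage marker Cd14 at 13.64. The part of these cell types in the levels of Mmp8, Mmp9 and Mmp13 was not tested.

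**Figure D3:**
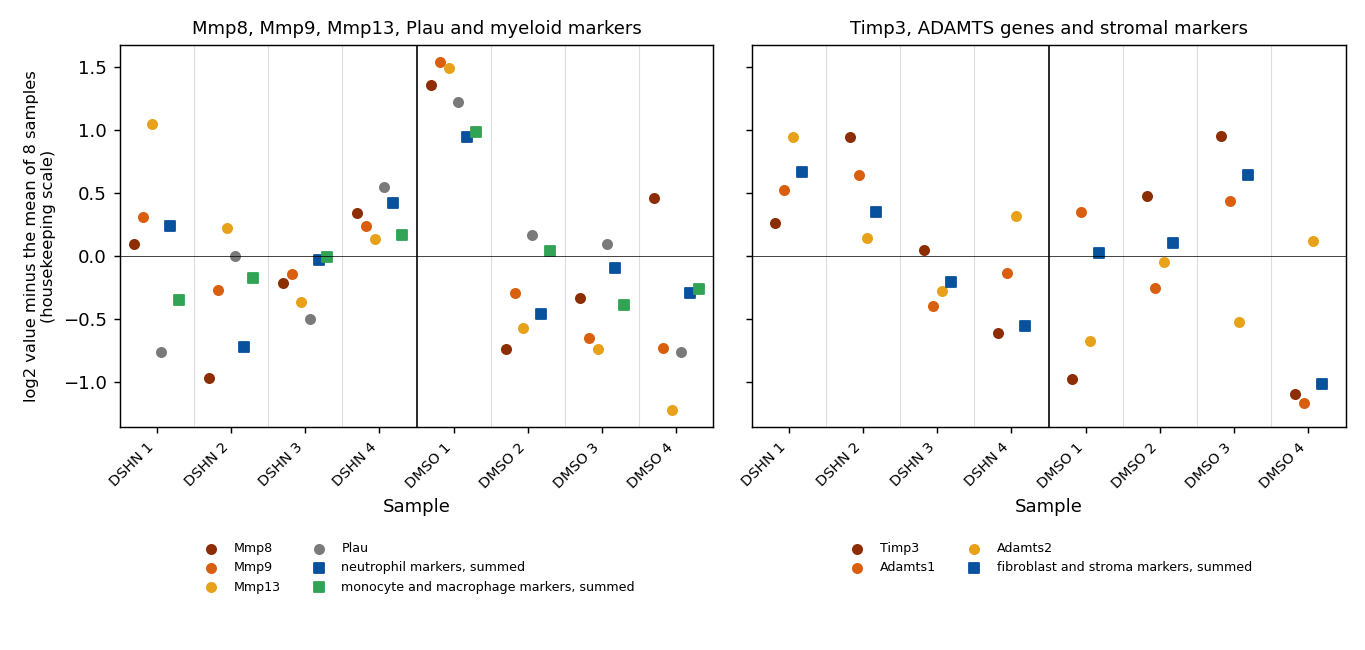
log2 value minus the mean of the 8 samples (housekeeping scale) for each sample, DSHN left of DMSO. Circles are genes and squares are summed marker levels, in which bright markers weigh most. Of the profiles drawn, those of Mmp8, Mmp9, Mmp13, Plau, the neutrophil sum and the monocyte and macrophage sum peak in DMSO 1, while Timp3, Adamts1 and the stromal sum have their lowest point in DMSO 4.

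Mmp12, the macrophage elastase, had 9.94, 9.65 and 10.15 in DSHN 2, 3 and 4, and 9.98, 9.83, 9.60 and 8.76 in DMSO 1 to 4. In DSHN 1 its value was 7.70, at the background of that sample, while Mmp19, Mmp8 and Mmp9 were 4.51, 2.17 and 3.02 times the limit there. The difference was -0.18 over all samples (95% interval -1.34 to 0.98, limma adjusted p = 0.969) and 0.37 without DSHN 1. The macrophage markers Cd68 and Mrc1 also had their lowest DSHN value in DSHN 1, at 10.24 and 9.69, whereas Csf1r and Adgre1 had their highest there, at 9.40 and 9.61. The 6 eosinophil markers, 3 of them above background in all samples, summed to 12.12 in DSHN 1, against 10.09 to 11.17 in the other DSHN samples and 9.15 to 11.22 in DMSO samples. The part of these cells in the Mmp12 value was not tested.

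Mmp19, which cuts basement membrane proteins, stayed within 1.04 over the 8 samples. It had 9.87, 10.40, 10.70 and 10.67 in DSHN 1 to 4, against 10.08, 10.91, 10.00 and 10.63 in DMSO 1 to 4. The ranges of the groups overlapped, with the lowest value in DSHN 1 and the highest in DMSO 2, and the difference was 0.01 (95% interval -0.62 to 0.63, limma adjusted p = 0.998).

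Of the membrane-bound enzymes, Adam8 is a leukocyte protease that sheds adhesion molecules, and Adam19 sheds growth factors of the neuregulin family. Adam8 had 13.36, 12.24, 12.74 and 12.17 in DSHN 1 to 4, against 12.75, 12.50, 12.49 and 12.27 in DMSO 1 to 4. The 4 DMSO values lay inside the DSHN range, and the difference was 0.13 (95% interval -0.51 to 0.76, limma adjusted p = 0.954). Adam19 had 7.99, 6.61, 7.06 and 6.01 in DSHN 1 to 4, against 6.45, 6.40, 6.93 and 7.18 in DMSO 1 to 4. Here too the DSHN values enclosed the DMSO values, with a difference of 0.18 (-0.73 to 1.09, adjusted p = 0.954). Both genes were highest in DSHN 1, where Adam19 had 49 counts, 1.22 times the limit. Without that sample the differences were -0.12 for Adam8 and -0.18 for Adam19, on the other side of 0.

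Timp3, Adamts1 and Adamts2 were dim. Timp3 is the inhibitor that stays bound to the matrix, Adamts1 cuts proteoglycans and Adamts2 trims procollagen. Timp3 had 7.14, 6.24 and 5.59 in DSHN 2, 3 and 4, and was not above background in DSHN 1 at 17 counts. In DMSO 1 to 4 it had 5.22, 6.68, 7.15 and 5.10, so that DMSO samples held both the highest and the lowest of the measured values. The difference was 0.32 (95% interval -0.85 to 1.49, limma adjusted p = 0.925) and -0.54 with background subtracted. Adamts1 had 5.95, 4.90 and 5.17 in DSHN 2, 3 and 4, against 5.65, 5.05 and 5.74 in DMSO 1, 2 and 3, and was not above background in DSHN 1 and DMSO 4, at 11 and 19 counts. Adamts2 had 5.27, 4.84 and 5.45 in DSHN 2, 3 and 4, against 5.08, 4.60 and 5.25 in DMSO 2, 3 and 4, and was not above background in DSHN 1 and DMSO 1, at 13 and 17 counts. Differences were 0.32 (-0.67 to 1.30) for Adamts1 and 0.56 (-0.27 to 1.40) for Adamts2, with an adjusted p of 0.925 in limma for each, and -0.27 and -0.24 with background subtracted.

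Collagen transcripts, which mark fibroblasts, were measured in the same pools. The 4 fibroblast and stromal markers on the panel, with Col1a2 and Col3a1 above background in 7 samples each and Pdgfrb in 0, summed to 8.46, 7.91 and 7.56 in DSHN 2, 3 and 4, against 8.14, 8.21, 8.76 and 7.10 in DMSO 1 to 4. In DSHN 1 the sum was 8.78, where each of these 4 genes was under background. DMSO 3 was the highest DMSO sample and DMSO 4 the lowest in the sum, in Timp3 and in Adamts1, while Adamts2 had its lowest measured DMSO value, 4.60, in DMSO 3. The part of stromal cells in these levels was not tested.

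Plaur, the urokinase receptor, was among the least variable genes tested. It had 12.99, 12.99, 13.27 and 13.05 in DSHN 1 to 4, against 13.49, 13.41, 12.97 and 13.14 in DMSO 1 to 4. All 8 values lay within 0.52, and the DSHN values lay inside the DMSO range. Its SD within groups was 0.20, smaller than in all but 6.50% of the panel, whose median was 0.48. The difference was -0.18 (95% interval -0.63 to 0.27, limma adjusted p = 0.925), and an exact two-sided permutation test over 70 assignments gave p = 0.257. Without any 1 sample the difference was between -0.27 and -0.10. It was -0.005 when scaled to 3 housekeeping genes without Tubb5, a scaling that moved the median of the panel to 0.20. On the scale of 4 genes, Tubb5 itself differed by 0.51 ± 0.32 (SE), against -0.21 for Oaz1, -0.17 for Rpl19 and -0.13 for Ppia. The interval leaves room for a Plaur level lower by 0.63 or higher by 0.27 in DSHN, on the log2 scale.

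**Figure D4:**
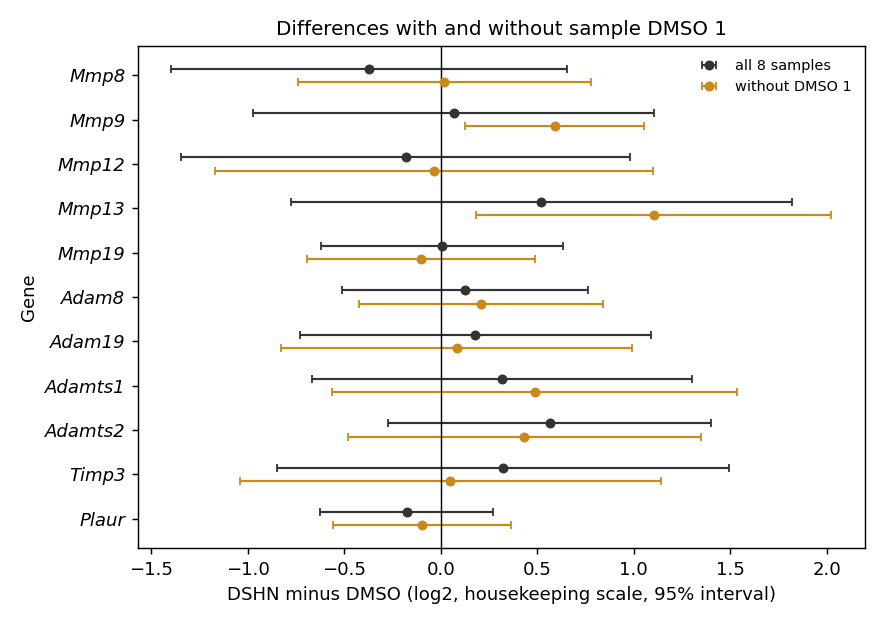
Difference DSHN minus DMSO with its 95% interval from limma (log2, housekeeping scale) for the 11 tested genes, with all 8 samples and without DMSO 1. With all samples each interval spans 0, the narrowest is that of Plaur (-0.63 to 0.27), and without DMSO 1 those of Mmp9 (0.13 to 1.05) and Mmp13 (0.18 to 2.03) lie above 0. DMSO 1 held the highest DMSO value of both genes, so leaving it out could only raise these differences.

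Of the plasminogen activation genes, 6 were tested, 0 passed in either direction. DSHN means were higher for 3 and lower for 3, and the median was -0.01. Plau, which encodes urokinase, the ligand of Plaur, had 7.73, 8.49, 7.99 and 9.04 in DSHN 1 to 4, against 9.72, 8.66, 8.59 and 7.73 in DMSO 1 to 4. It was highest in DMSO 1, as were Plaur, Mmp8 and Mmp9 and the values of Mmp13 above background, and differed by -0.36 ± 0.43 (SE) over all samples and by -0.01 without DMSO 1. Serpinb2, an inhibitor of urokinase, differed by 0.70 ± 0.51 (SE, limma adjusted p = 0.925) and by 0.17 without DSHN 1.

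Among 9 tested matrix proteins and their receptors, 0 passed in either direction, 6 were higher and 3 lower, and the median was 0.21. Of these, 2 had an unadjusted p under 0.05, against 3.61% of the panel (limma adjusted p = 0.925 for each). They were Col4a2, a basement membrane collagen, at 1.13 ± 0.48 (SE) and the collagen receptor Ddr2 at 1.52 ± 0.65. Both were under background in DSHN 1 and DMSO 1, and Ddr2 also in DSHN 3, and without DSHN 1 and DMSO 1 they differed by 0.52 and 0.55. The 3 endothelial markers on the panel, Cdh5, Tek and Cd34, summed to 8.54, 6.49, 6.67 and 5.96 in DSHN 1 to 4, against 5.17, 5.55, 5.74 and 5.64 in DMSO 1 to 4. Each DSHN sum was thus higher than each DMSO sum, though all 3 markers were under background in DSHN 1 and DMSO 1. Tek was above background in 1 DSHN and 0 DMSO samples, Cdh5 in 3 and 1, and Cd34 in 3 and 2. The DMSO sums are thus largely background signal, and the part of endothelial cells in the Col4a2 and Ddr2 levels was not tested. Of the 19 tested substrates shed by ADAM10 or ADAM17, 0 passed, and 7 had a higher and 12 a lower mean (median -0.10). The tumour necrosis factor receptor Tnfrsf1a differed by -0.35 ± 0.24 and the selectin ligand Selplg by -0.25 ± 0.20.

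Inducers of metalloproteinase genes were also read. Of 7 cytokines, 0 passed, and 3 had a higher and 4 a lower mean (median -0.19). Csf2, the growth factor GM-CSF, was the 1 with an unadjusted p under 0.05, which 3.61% of the panel had. It differed by 1.51 ± 0.37 (SE, limma adjusted p = 0.925). Csf2 was above background in 3 DSHN and 2 DMSO samples, and not in DSHN 1. Osm differed by -0.40 ± 0.21. Of 7 AP-1, ETS and RUNX factors, whose AP-1 members bind the motif shown above, 0 passed, and 2 had a higher and 5 a lower mean (median -0.24). Atf3, a stress-induced partner of AP-1 proteins, was the 1 with an unadjusted p under 0.05, at -0.60 ± 0.21 (SE, limma adjusted p = 0.925). The AP-1 subunit Jun had 8.35, 8.38, 8.39 and 8.59 in DSHN 1 to 4, against 9.70, 8.41, 8.84 and 8.72 in DMSO 1 to 4, a difference of -0.49 ± 0.28, and like Mmp9 it was highest in DMSO 1. Runx2, a known activator of Mmp13 in bone, differed by 0.57 ± 0.41 and by 0.15 without DMSO 1. Elane and Ctsg, which encode neutrophil serine proteases, and Mpo, which encodes the granule enzyme myeloperoxidase, were too dim to be tested.

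Likeness between genes was measured as the root mean square difference, over the 8 samples, of values centred on each gene's mean, among the 281 genes above background in every sample. For Mmp8 the nearest were Ly6g and S100a8, neutrophil genes, at 0.33 and 0.38 (median over all 280 other genes 0.64). For Mmp9 they were Acod1, the itaconate-producing enzyme of activated macrophages, at 0.21, and Psmb9, an immunoproteasome subunit, at 0.27, with a median of 0.60. Mmp8 and Mmp9, both granule genes, thus had different nearest genes. For Adam19 the nearest was the adhesion receptor Adgre5 at 0.19, and for Mmp19 it was the innate receptor Tlr2 at 0.17. These values describe 8 samples that share 1 scaling per sample, and they carry no test.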

How the data were processed

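The deposited table holds log2 values with 2 decimals for 754 genes, 6 positive and 8 negative controls in 8 samples, and per the labels' protocols RNA came from bead-isolated cells of pooled lungs. Software: not given in the sources used here. As deposited, log2 values carry a spike-in factor per sample, worked out from 5 positive controls and the spacing of low values. Counts were recovered by removing it and rounding, and are approximate for bright genes. Positions and start sites are from RefSeq (GRCm38.p6).

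Genes that reached a deposited value of 20 in 4 or more samples (554) were tested on the housekeeping scale with limma 3.58.1 in R 4.3.3, with a variance trend and no covariates. The members and lists were chosen with earlier results of these data known. Of a list, the genes with the smallest p are named, and per-sample values are given for members above background in all samples; those for the other tested members were added after their values were seen. For some genes that this rule picks, the result is left out here. Each sample is a pool of separate mice. In 20 simulated runs of DSHN against DMSO with 554 genes, 53.8% of changes of 1 and 89.2% of changes of 2 (log2) were called, and 1.40% of unchanged genes. Many genes were changed at once in each run, which eases the adjusted threshold, and the noise of a gene was equally large in every sample. The data differ in both respects, so these shares do not give the odds of calling a single changed gene here. Samples with the same number were not treated as pairs, because the labels do not say that they share a batch. Their deviations from the group means correlated at -0.18, 0.14, 0.02 and -0.29 for numbers 1 to 4, which cannot decide whether they do.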

Additional observations from a re-analysis of the deposited data

How the results depend on the processing

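In all 18 alternative settings, 0 of the tested genes described here passed the threshold. Over the panel 0 genes passed, except 1 with sample weights. The count of genes at an unadjusted p under 0.05 was 1 on deposited values (196 of 554 over the panel), 2 without DMSO 1 (23 of 554) and 2 without both DMSO 1 and DSHN 1 (28 of 554). The replicate block gave the same differences, 8 genes higher and 0 passing. The number with a higher mean in DSHN was 0 of 11 on deposited values (1 of 554 over the panel), 4 of 11 with background subtracted (164 of 554), 16 of 19 without a filter (491 of 751), 4 of 6 among genes above background in all samples (107 of 281), and 6 to 8 of 11 when 1 sample was left out. The median difference was -1.775 on deposited values, -0.16 with background subtracted, 0.30 with 3 housekeeping genes, 0.52 without a filter and 0.01 to 0.28 when 1 sample was left out, beside -1.87, -0.20, 0.20, 0.21 and -0.05 to 0.13 over the panel.

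Signs of single genes turned as follows. The deposited values differ from the housekeeping scale only by the housekeeping mean of each sample, the same shift for every gene. For the other settings the cause was not tested. On deposited values Adam19 was at -1.72, Adam8 -1.775, Adamts1 -1.58, Adamts2 -1.34, Mmp13 -1.38, Mmp19 -1.895, Mmp9 -1.835 and Timp3 -1.58. With background subtracted Adamts1 was at -0.27, Adamts2 -0.24, Mmp19 -0.0099 and Timp3 -0.54. With sample weights Mmp12 was at 0.12, Mmp19 -0.11, Mmp8 0.15 and Timp3 -0.11. When 1 sample was left out, the differences ranged from -0.18 to 0.48 for Adam19, -0.12 to 0.28 for Adam8, -0.017 to 0.52 for Adamts1, -0.44 to 0.37 for Mmp12, -0.13 to 0.19 for Mmp19, -0.68 to 0.018 for Mmp8 and -0.17 to 0.59 for Mmp9. Without DMSO 1 and DSHN 1, Adam19 was at -0.27, Adam8 -0.03 and Mmp12 0.52. With no change of sign, they ranged from 0.20 to 1.10 for Mmp13, 0.34 to 0.75 for Adamts2, 0.008 (without DMSO 4) to 0.69 for Timp3 and -0.27 to -0.10 for Plaur. Depth limits the dim genes: under 40.1 counts in DSHN 1 a value is only a bound.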
